A study of Mus musculus with 9 samples.

Results

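Tissue macrophages of the fetal lung were followed through 10 genes that mark or build these cells: C1qa, C1qb, C1qc, Csf1r, Adgre1, Lyz2, Mrc1, F13a1, Ptprc and Spi1. The genes were taken by name from a table of 55286 genes, and all 10 were among the 15158 genes that passed the filter on low counts. Expression was measured by RNA-seq of whole lung in 9 libraries, 3 in each of 3 groups. The first group was lung explants that had been cultured for 72 h with EPZ5676, the second was control explants cultured for the same time, and the third was fresh lung. All tissue was wild-type mouse lung of embryonic day E11.5, and the explants started from lungs of that stage. EPZ5676 (pinometostat) inhibits DOT1L, the methyltransferase of histone H3 lysine 79. Its dose, the culture medium and the number of lungs in a library are not given in the sources used here.

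Fetal macrophages enter the lung from the yolk sac and the fetal liver and then live in the tissue for long periods. Their survival and growth depend on signals through the receptor CSF1R, and their gene programme depends on the transcription factor PU.1, the product of Spi1. Mature macrophages clear dying cells and debris, and they are a main source of C1q, the recognition subunit of the classical complement pathway. RNA of whole tissue mixes all its cells, so a gene level here cannot tell apart a change in the number of macrophages from a change in RNA per macrophage.

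The libraries held 6509563 to 9861452 expected counts. Nothing in the labels says that replicates came from separate litters or cultures, so the p-values measure only the spread between these libraries. Replicates of a group differed by more than sampling noise, with a chi-square per degree of freedom of 2.59 to 30.8. The 8 general lung markers, which included Nkx2-1, Epcam and Foxf1, summed to 458 to 615 TPM in EPZ5676 explants, 427 to 630 TPM in Control explants and 406 to 457 TPM in fresh lung. TPM is a relative transcript abundance, corrected for transcript length and library size. Library Control 1 held 228 TPM of 10 liver genes, against 0.88 to 25.7 TPM in the other 8 libraries. Xist, the RNA of the inactive X chromosome, was under 1 TPM in Control 3, EPZ5676 1 and EPZ5676 3 and at 72.5 to 284 TPM in the other 6 libraries. Changes were tested on counts with edgeR's quasi-likelihood F test, with Benjamini-Hochberg adjustment over all 15158 genes and a threshold of 0.05. Within the lung list, the epithelial genes Cdh1, Epcam and Nkx2-1 rose against fresh lung, by 1.34 to 2.33 on the log2 scale in EPZ5676 explants and by 1.15 to 2.05 in Control explants. The endothelial genes Cdh5 and Pecam1 and the mesenchymal genes Foxf1 and Fendrr fell, with log2 fold changes of -2.48 to -1.16 in EPZ5676 explants and -2.25 to -0.44 in Control explants. Without E11.5 2, E11.5 3 or Control 2 only 3 genes of this list were called in Control explants, against 7 with all libraries. The part of these shifts in tissue make-up in the values below was not tested. Dot1l, the gene of the drug's target, was at 20.8 ± 3.7 TPM in EPZ5676 explants and 24.0 ± 5.6 TPM in Control explants (SD, n = 3 each), and its log2 fold change of -0.20 ± 0.10 (SE) was not called (edgeR adjusted p = 0.743).

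RefSeq promoters on GRCm38.p6 were at hand for 6 of the 10 genes: C1qb, C1qc, Mrc1, Lyz2, F13a1 and Ptprc. PU.1 binds purine-rich DNA around a GGAA core, and the letters GAGGAA, or TTCCTC on the other strand, were searched in the 250 bases before each start. Of the 8 promoters listed for these 6 genes 5 held at least 1 match, each in a different gene, and 23.3% of all 32851 promoters in the table held one. Lyz2 had no match in that window. C1qc had 1, with its first base 193 bases before the start. Ptprc had 1 at 158 bases before the RefSeq start, which lies inside the annotated gene, as did this match. A match of letters is a description and not a measured binding site. The promoters of 4 genes are shown because the changes of these genes differed in size or direction in the data below. Each is written 5′ to 3′ on the strand of its gene, from the bases outside the annotated gene, with the matched letters in capitals. C1qb lies on the minus strand, and its sequence is chr4:136886201-136886450. Mrc1 lies on the plus strand, and its sequence is chr2:14229164-14229391. F13a1 lies on the minus strand, and its sequence is chr13:37050245-37050494. Lyz2 lies on the minus strand, and its sequence is chr10:117282322-117282522. The RefSeq starts of Mrc1 and Lyz2 lie inside the annotated gene, so only 228 and 201 of the 250 bases are shown for them.
C1qb: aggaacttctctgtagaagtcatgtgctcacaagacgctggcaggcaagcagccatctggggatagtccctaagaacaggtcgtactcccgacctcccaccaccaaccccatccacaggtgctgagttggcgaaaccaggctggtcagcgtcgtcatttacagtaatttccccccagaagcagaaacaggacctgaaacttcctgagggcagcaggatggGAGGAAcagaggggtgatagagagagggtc
Mrc1: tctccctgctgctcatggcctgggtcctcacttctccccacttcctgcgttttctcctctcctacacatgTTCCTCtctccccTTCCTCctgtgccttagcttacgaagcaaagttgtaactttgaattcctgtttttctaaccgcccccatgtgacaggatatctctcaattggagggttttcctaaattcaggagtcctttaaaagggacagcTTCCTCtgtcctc
F13a1: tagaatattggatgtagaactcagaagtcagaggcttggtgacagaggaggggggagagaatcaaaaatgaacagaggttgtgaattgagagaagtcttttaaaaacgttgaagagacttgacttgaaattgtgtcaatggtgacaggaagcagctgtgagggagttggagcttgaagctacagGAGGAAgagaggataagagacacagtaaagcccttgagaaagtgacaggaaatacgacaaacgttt
Lyz2: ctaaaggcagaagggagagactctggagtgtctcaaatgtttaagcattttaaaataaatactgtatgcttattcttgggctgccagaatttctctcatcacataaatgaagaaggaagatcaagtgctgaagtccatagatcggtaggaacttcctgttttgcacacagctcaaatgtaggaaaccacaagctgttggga
The match of C1qb began 30 bases before the start, those of Mrc1 at 180, 167 and 35 bases before it on the opposite strand, and that of F13a1 at 66 bases before it.

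Together the 10 genes made up a much larger share of the RNA after culture than before it. Their summed level was 778, 768 and 860 TPM in EPZ5676 explants 1 to 3, 521, 635 and 501 TPM in Control explants 1 to 3, and 65.3, 37.4 and 42.9 TPM in fresh lungs 1 to 3. The 3 groups did not overlap in this sum. Lyz2 alone supplied 75.6% to 81.5% of it in EPZ5676 explants and 73.4% to 88.2% in Control explants, against 6.08% to 8.16% in fresh lung. Without Lyz2 the sum was 183, 142 and 210 TPM in EPZ5676 explants, 139, 131 and 59.2 TPM in Control explants, and 60.2, 34.4 and 40.3 TPM in fresh lungs. Library Control 3 then lay within the range of the fresh lungs.

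The order of the genes by mean TPM also differed between cultured and fresh lung. In both cultured groups Lyz2 stood first, at 623 ± 28 TPM in EPZ5676 explants and 443 ± 61 TPM in Control explants (SD, n = 3 each). The 3 C1q genes came next, without separation among themselves, and then Mrc1, whose range overlapped with theirs in Control explants. The lowest gene of the 10 was Ptprc in EPZ5676 explants, at 4.89 ± 0.64 TPM, and F13a1 in Control explants, at 0.99 ± 0.82 TPM. In fresh lung Mrc1 was the most abundant of the 10 at 10.1 ± 3.0 TPM, followed by C1qb at 7.51 ± 2.11 and F13a1 at 5.49 ± 2.75 TPM. The ranges of these 3 overlapped, and Adgre1 was lowest at 1.83 ± 0.89 TPM.

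**Figure D1:**
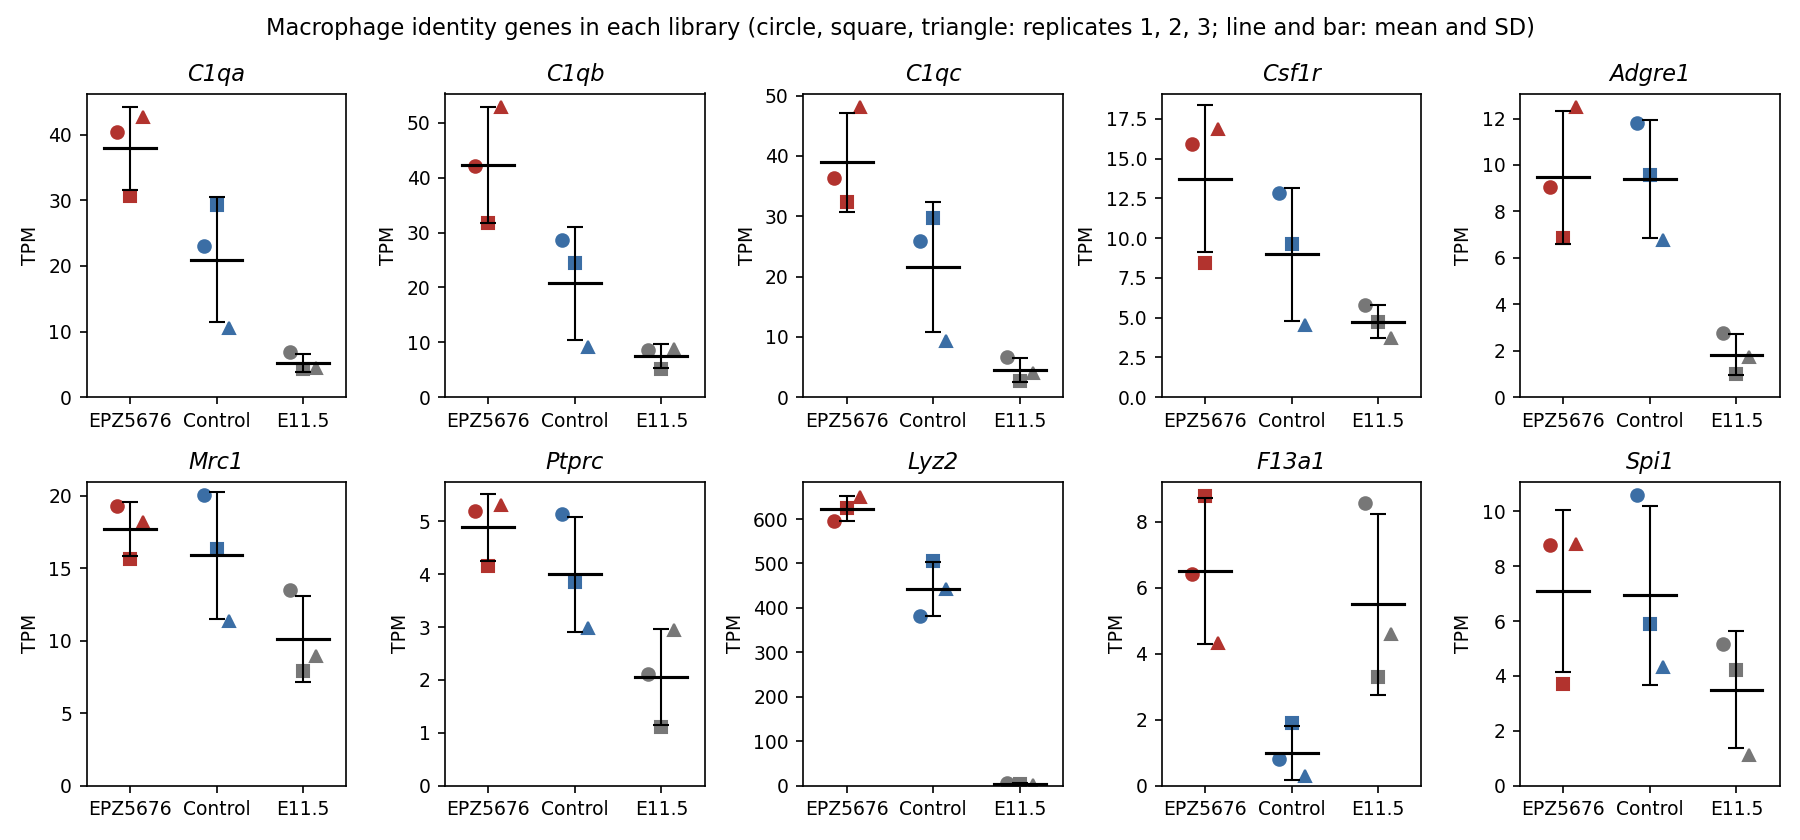
TPM of each of the 10 macrophage genes in each library, with 1 panel per gene, the 3 groups along the x axis and an own linear y axis from 0. Circles, squares and triangles are replicates 1, 2 and 3, and the line and bar are the mean and SD; F13a1 is at 0.28 to 1.89 TPM in Control explants, below all EPZ5676 explants and all fresh lungs.

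Csf1r encodes the receptor tyrosine kinase for the cytokines CSF1 and IL34. It was at 15.9, 8.43 and 16.9 TPM in EPZ5676 explants, 12.8, 9.65 and 4.53 TPM in Control explants, and 5.79, 4.73 and 3.70 TPM in fresh lungs. Library Control 3 overlapped with the fresh lungs, and the cultured groups overlapped with each other. Csf1r rose in Control explants against fresh lung, with a log2 fold change of 1.08 ± 0.25 (SE, adjusted p = 0.00666, edgeR), and in EPZ5676 explants against fresh lung, with 1.37 ± 0.25 (edgeR adjusted p = 0.00155). EPZ5676 against Control gave 0.29 ± 0.23 and was not called (edgeR adjusted p = 0.867). The 3-prime end of Csf1r on chromosome 18 (GRCm38, 61100598 to 61132149) overlaps Hmgxb3 on the opposite strand, which was at 12.9 to 19.8 TPM. Whether the counting used strand was not stated, so reads of the overlap cannot be told apart.

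The ligands of this receptor differed in abundance. Csf1 was at 13.6, 16.7 and 10.9 TPM in EPZ5676 explants, 12.2, 11.2 and 7.73 TPM in Control explants, and 8.74, 6.79 and 5.82 TPM in fresh lungs. Its log2 fold change was 0.62 ± 0.23 for EPZ5676 against Control and 0.23 ± 0.24 for Control against fresh lung, neither of which was called (edgeR adjusted p = 0.604 and 0.469). Csf1 rose in EPZ5676 explants against fresh lung, by 0.85 ± 0.23 on the log2 scale (edgeR adjusted p = 0.0148). That call was lost without EPZ5676 2 (edgeR adjusted p = 0.0564), without E11.5 2 (0.0688) and without E11.5 3 (0.0673). Il34 was at 0 to 8 counts in all 9 libraries and did not pass the filter.

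Spi1 encodes PU.1. It was at 8.77, 3.69 and 8.82 TPM in EPZ5676 explants, 10.6, 5.88 and 4.34 TPM in Control explants, and 5.18, 4.22 and 1.11 TPM in fresh lungs. All 3 groups overlapped in TPM. The counts behind these values were small, at 28 to 53 in EPZ5676 explants, 28 to 75 in Control explants and 4 to 15 in fresh lungs. On counts Spi1 rose against fresh lung in Control explants, by 1.97 ± 0.41 on the log2 scale (edgeR adjusted p = 0.00388), and in EPZ5676 explants, by 1.87 ± 0.41 (edgeR adjusted p = 0.00472). Both calls were lost when TPM was tested in place of counts (limma adjusted p = 0.145 to 0.162), and the ratio of CPM, counts scaled to library size without the length, to TPM for Spi1 varied 3.47-fold across libraries. EPZ5676 against Control gave -0.10 ± 0.36 (edgeR adjusted p = 0.970).

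C1qa, C1qb and C1qc encode the 3 chains of C1q and lie on the minus strand of chromosome 4 within 18675 bases (GRCm38, 136880129 to 136898803). C1qa was at 40.3, 30.7 and 42.7 TPM in EPZ5676 explants, 23.0, 29.3 and 10.6 TPM in Control explants, and 6.81, 4.28 and 4.49 TPM in fresh lungs. C1qb was at 42.1, 31.8 and 53.0 TPM in EPZ5676 explants, 28.6, 24.5 and 9.13 TPM in Control explants, and 8.69, 5.07 and 8.76 TPM in fresh lungs. C1qc was at 36.4, 32.4 and 48.1 TPM in EPZ5676 explants, 25.9, 29.6 and 9.30 TPM in Control explants, and 6.70, 2.71 and 4.01 TPM in fresh lungs. For each chain every EPZ5676 explant lay above every Control explant, and every Control explant lay above every fresh lung. Control 3 was the lowest cultured library for all 3 chains.

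Against fresh lung the chains rose in Control explants, with log2 fold changes of 2.01 ± 0.33 for C1qa (edgeR adjusted p = 9.3e-04), 1.46 ± 0.36 for C1qb (0.00937) and 2.27 ± 0.41 for C1qc (0.00208). In EPZ5676 explants they rose by 2.86 ± 0.32, 2.49 ± 0.35 and 3.12 ± 0.41 on the log2 scale, with edgeR adjusted p of 8.5e-05, 4.0e-04 and 2.7e-04. In EPZ5676 against Control explants the differences were 0.84 ± 0.28 for C1qa, 1.03 ± 0.32 for C1qb and 0.85 ± 0.34 for C1qc, and none was called (edgeR adjusted p = 0.535, 0.492 and 0.669). Without Control 3 the same differences were 0.58, 0.73 and 0.55.

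The balance of the chains was close to equal in culture. C1qb held 35.3 ± 1.7% of their summed TPM in EPZ5676 explants, 32.6 ± 3.9% in Control explants and 44.0 ± 6.0% in fresh lung (SD, n = 3 each). C1qc held 32.7 ± 1.9% in EPZ5676 explants, 33.7 ± 1.7% in Control explants and 25.3 ± 4.2% in fresh lung. The fresh lungs did not overlap with the cultured libraries in either share, with C1qb at 36.9% or less in culture against 39.1% or more in fresh lung. They rest on 12 to 35 counts per chain in each fresh library.

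Ptprc encodes CD45, a phosphatase carried by almost all leukocytes. It was at 5.19, 4.16 and 5.32 TPM in EPZ5676 explants, 5.14, 3.86 and 2.99 TPM in Control explants, and 2.12, 1.11 and 2.94 TPM in fresh lungs. Both cultured groups lay above the fresh lungs, with Control 3 and E11.5 3 almost equal, and overlapped with each other. Ptprc rose against fresh lung in Control explants, with a log2 fold change of 1.42 ± 0.23 (adjusted p = 8.9e-04, edgeR), and in EPZ5676 explants, with 1.65 ± 0.23 (edgeR adjusted p = 2.9e-04). EPZ5676 against Control gave 0.23 ± 0.21 (edgeR adjusted p = 0.891).

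Adgre1 encodes the adhesion receptor F4/80, the classical surface marker of mouse macrophages. It was at 9.05, 6.84 and 12.5 TPM in EPZ5676 explants, 11.8, 9.56 and 6.75 TPM in Control explants, and 2.76, 0.99 and 1.74 TPM in fresh lungs. The cultured groups overlapped with each other and lay above every fresh lung. Adgre1 rose by 1.96 ± 0.38 on the log2 scale in Control explants and by 2.30 ± 0.38 in EPZ5676 explants against fresh lung (edgeR adjusted p = 0.00267 and 9.3e-04). The difference between EPZ5676 and Control was 0.33 ± 0.33 (edgeR adjusted p = 0.908).

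Mrc1 encodes the mannose receptor CD206, an endocytic receptor of tissue macrophages that some endothelial cells also carry. It was at 19.3, 15.6 and 18.2 TPM in EPZ5676 explants, 20.1, 16.3 and 11.3 TPM in Control explants, and 13.5, 7.94 and 8.96 TPM in fresh lungs. Control 3 lay below the highest fresh lung, and the 2 cultured groups overlapped. Mrc1 rose by the least of the 9 genes that rose, with log2 fold changes of 0.75 ± 0.19 in Control explants and 0.91 ± 0.19 in EPZ5676 explants against fresh lung (edgeR adjusted p = 0.0115 and 0.00378). The difference between EPZ5676 and Control explants was 0.16 ± 0.19 and did not pass (edgeR adjusted p = 0.920). Without E11.5 3 the call in Control explants was lost (edgeR adjusted p = 0.0541). A list of 6 markers of lymphatic and sinusoidal endothelium summed to 21.1, 22.2 and 28.04 TPM in EPZ5676 explants, 28.1, 29.0 and 4.45 TPM in Control explants, and 17.1, 11.0 and 9.50 TPM in fresh lungs. Most of the sum in culture was Ccl21a, a chemokine with near-identical gene copies, at 18.97 ± 4.29 TPM in EPZ5676 explants, 15.6 ± 11.48 TPM in Control explants and 2.72 ± 3.50 TPM in fresh lung. Flt4, the receptor VEGFR3 of lymphatic endothelium, went the other way and fell by 1.39 ± 0.24 on the log2 scale in EPZ5676 explants and by 1.86 ± 0.25 in Control explants (edgeR adjusted p = 0.00124 and 2.98e-04). Over the 4 markers that passed the filter the median log2 fold change was -0.77 in EPZ5676 explants and -1.12 in Control explants, and Flt4 and Ccl21a were named after their values were seen. Control 3 was the lowest Control explant in the sum and in each of the 10 genes except Lyz2. The part of endothelium in the Mrc1 values was not tested.

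Lyz2 encodes lysozyme M, a secreted enzyme that digests bacterial cell walls. It was at 595, 626 and 650 TPM in EPZ5676 explants, 383, 505 and 442 TPM in Control explants, and 5.18, 3.05 and 2.61 TPM in fresh lungs. The 3 groups did not overlap. Lyz2 rose 127-fold in Control explants against fresh lung, a log2 fold change of 6.98 ± 0.26 that ranked 2 by p among all genes tested (edgeR adjusted p = 3.5e-07). In EPZ5676 explants it rose 172-fold, or 7.43 ± 0.26 on the log2 scale (edgeR adjusted p = 1.4e-07). The difference between EPZ5676 and Control explants was 0.44 ± 0.18 and was not called (edgeR adjusted p = 0.671), and without Control 1 it was 0.28. Its paralog Lyz1 was at 0 in 7 libraries and at 0.58 and 0.78 TPM in EPZ5676 2 and 3.

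In the mouse lung Lyz2 is also made by alveolar type 2 cells. The 7 markers of these cells, among them the surfactant genes Sftpc and Sftpb, summed to 603, 1544 and 758 TPM in EPZ5676 explants, 200.4, 421 and 1157 TPM in Control explants, and 27.5, 22.1 and 24.7 TPM in fresh lungs. All 6 that passed the filter rose in Control explants and in EPZ5676 explants against fresh lung, where 21.1% and 22.1% of all genes rose. Most of this sum in culture, and of its spread, was Sftpc, at 879 ± 499 TPM in EPZ5676 explants and 542 ± 506 TPM in Control explants. Sftpa1, Sftpb and Lamp3 lay higher in every EPZ5676 explant than in every Control explant, as did Lyz2 and 5.64% of all genes. The log2 fold changes of Sftpa1, Sftpb and Lamp3 were 1.07, 1.03 and 0.70 and were not called (edgeR adjusted p = 0.331, 0.341 and 0.690). Abca3, Sftpc and Slc34a2 overlapped between EPZ5676 and Control explants in TPM and were not called either. The single type 2 genes were named after their values were seen. The part of type 2 cells in the Lyz2 values was not tested.

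F13a1 encodes the A subunit of coagulation factor XIII, which tissue macrophages and megakaryocytes make, and it was the gene that took a course of its own. It was at 6.40, 8.77 and 4.33 TPM in EPZ5676 explants, 0.81, 1.89 and 0.28 TPM in Control explants, and 8.57, 3.30 and 4.60 TPM in fresh lungs. Every Control explant lay below every library of the other 2 groups, which overlapped. The counts were 128, 156 and 75 in EPZ5676 explants, 18, 20 and 5 in Control explants, and 140, 53 and 75 in fresh lungs. F13a1 fell in Control explants against fresh lung, with a log2 fold change of -2.85 ± 0.50 (adjusted p = 0.0019, edgeR). EPZ5676 explants did not differ from fresh lung past the threshold, at 0.26 ± 0.42 (edgeR adjusted p = 0.656).

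Between EPZ5676 and Control explants F13a1 had a log2 fold change of 3.11 ± 0.50, or 8.61-fold, which ranked 10 by p among all genes but was not called (edgeR adjusted p = 0.131). DESeq2 on the same counts gave 3.12 with an adjusted p of 4.1e-07. Over the other alternatives, libraries left out included, the adjusted p of this difference was 0.0789 to 0.459 and its direction was the same. These comparisons share the Control libraries, so the low Control values enter both. Megakaryocyte and platelet markers, 12 genes, summed to 17.1, 6.29 and 9.65 TPM in EPZ5676 explants, 9.18, 4.70 and 3.41 TPM in Control explants, and 57.1, 54.9 and 67.8 TPM in fresh lungs. In that sum EPZ5676 explants overlapped with Control explants, and both lay below fresh lung. Of 5 markers that passed the filter, 4 had a log2 fold change above 0 in EPZ5676 against Control explants, as did 49.2% of all genes. The median of the 5 was 0.82, and 0 were called. All 5 fell against fresh lung in EPZ5676 and in Control explants, where 17.9% and 16.6% of all genes fell. The part of platelets in the F13a1 values was not tested. F13a1 (chromosome 13, 36867178 to 37050244, GRCm38) overlaps 2 antisense genes, which were at 0 to 0.69 TPM.

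Across the 10 genes, 9 rose and 1 fell in Control explants against fresh lung (edgeR, adjusted p under 0.05), where 21.1% of the 15158 genes tested rose and 16.6% fell. Their median log2 fold change was 1.71, against 0.02 over all genes. In EPZ5676 explants against fresh lung 9 rose and 0 fell, with F13a1 not called, where 22.1% of all genes rose and 17.9% fell. The median was 2.08, against 0.02 over all genes. When TPM was tested with limma in place of counts, Csf1r, Mrc1 and Ptprc lost their calls in Control explants (adjusted p = 0.0612 to 0.144) and kept them in EPZ5676 explants. Both comparisons share the fresh lungs.

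Between EPZ5676 and Control explants 0 of the 10 genes passed the edgeR threshold, and neither did any other gene, a background of 0%. Without EPZ5676 2 edgeR called 26 genes, of which 0 were among the 10. DESeq2 called 1 of the 10, F13a1, and 83 genes in all, which is 0.548% of those tested. At an unadjusted p under 0.05 edgeR listed 5 of the 10, namely C1qa, C1qb, C1qc, Lyz2 and F13a1, and 6.94% of all genes. The same 5 had all EPZ5676 libraries above all Control libraries in TPM, as did 5.64% of all genes. The log2 fold change was above 0 for 9 of the 10 and for 49.2% of all genes, with a median of 0.39 against -0.0038.

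**Figure D2:**
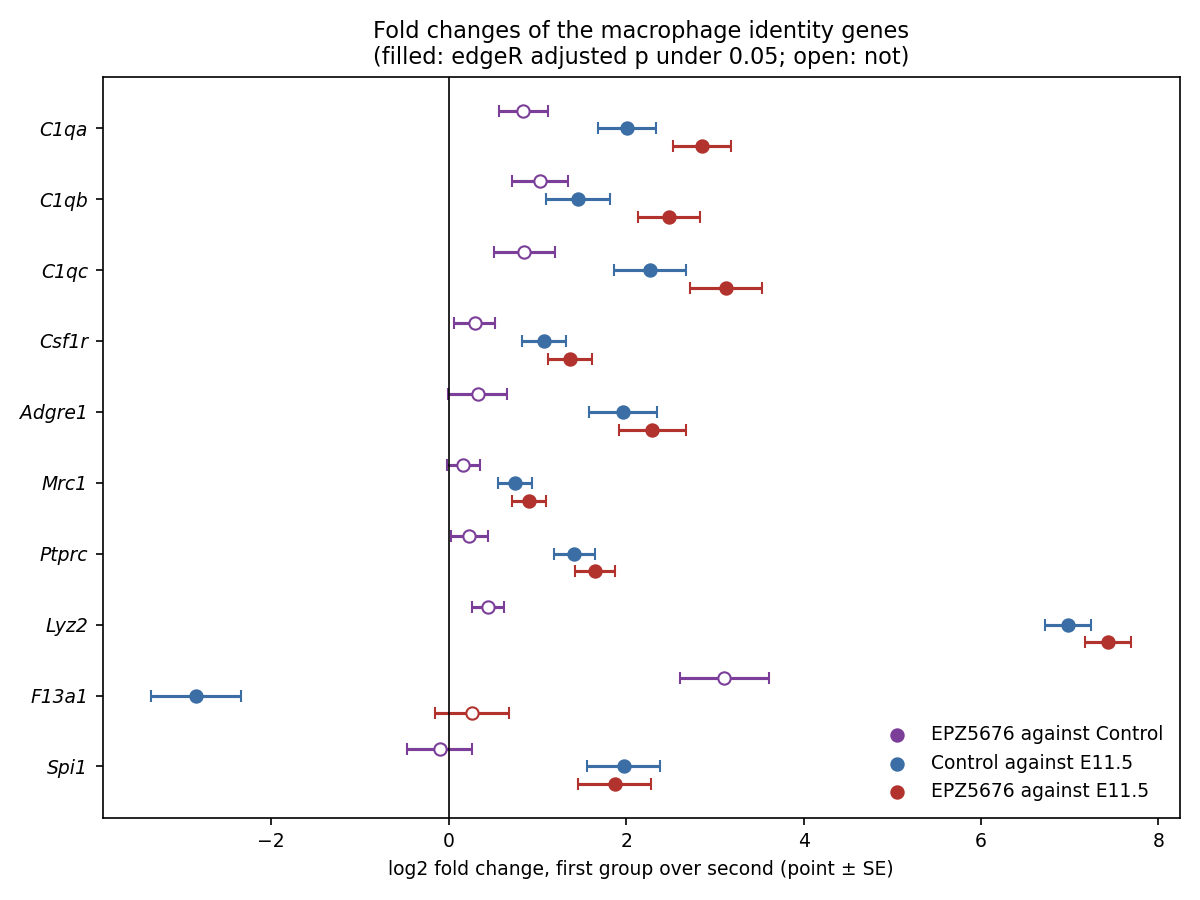
Log2 fold changes of the 10 genes from counts (edgeR, point ± SE), with the genes down the page and the 3 comparisons as colours; filled points passed an adjusted p of 0.05. All open points but 1 belong to EPZ5676 against Control, and the other is F13a1 in EPZ5676 against fresh lung at 0.26.

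A ratio of 2 genes within a library does not depend on how many macrophages the sample held, provided both genes come from the same cells. Each of the other 9 genes was therefore set against Csf1r within its own library, as the log2 of the TPM ratio. With 3 libraries in each group the exact permutation test cannot give a p below 0.10, and all 27 ratios and comparisons were adjusted together. Where groups did not overlap the exact two-sided p was 0.10, with an adjusted value of 0.193. The share of all genes that separate in this way relative to Csf1r was not computed. How many of the 9 separated therefore has no background to be read against, and all 9 ratios share the Csf1r values.

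In EPZ5676 against Control explants 2 genes lay higher relative to Csf1r without overlap, F13a1 with a log2 difference of 2.38 and C1qb with 0.49. Adgre1 and Spi1 lay lower without overlap, with differences of -0.66 and -0.65. The ratio of Adgre1 to Csf1r was -0.52 ± 0.27 in EPZ5676 explants and 0.15 ± 0.37 in Control explants (log2, SD, n = 3 each). That of Spi1 was -0.996 ± 0.174 in EPZ5676 explants and -0.35 ± 0.33 in Control explants. When CPM replaced TPM, an alternative chosen after seeing the data, both of these lower ratios overlapped between the groups, with differences of 0.03 for Adgre1 and -0.42 for Spi1. F13a1 and C1qb stayed higher without overlap, with 2.92 and 0.78, and C1qa and C1qc were then also higher without overlap, with 0.59 and 0.63. The relation of CPM to TPM varied across libraries by 1.77-fold for Csf1r, 1.92-fold for Adgre1 and 3.47-fold for Spi1, against 1.17-fold to 1.20-fold for the C1q genes, Lyz2 and Mrc1.

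In Control explants against fresh lung the ratio to Csf1r was higher without overlap for Lyz2 by 6.17, Adgre1 by 1.62, C1qc by 1.38 and C1qa by 1.10, and it was lower for F13a1, with a difference of -3.57. The ratios of C1qb, Spi1, Ptprc and Mrc1 overlapped, with differences of 0.53, 0.34, 0.21 and -0.17. With CPM the difference of Adgre1 was 0.90, and that of Spi1 was 1.07, still with overlap. In EPZ5676 explants against fresh lung the ratios of Lyz2, C1qc, C1qa, C1qb and Adgre1 were higher without overlap, by 6.0, 1.71, 1.39, 1.01 and 0.95. Those of Spi1 and Mrc1 overlapped, with differences of -0.31 and -0.66. With CPM these 5 ratios stayed higher without overlap. Spi1 was then also higher without overlap, with 0.65, and Mrc1 lower without overlap, with -0.45.

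**Figure D3:**
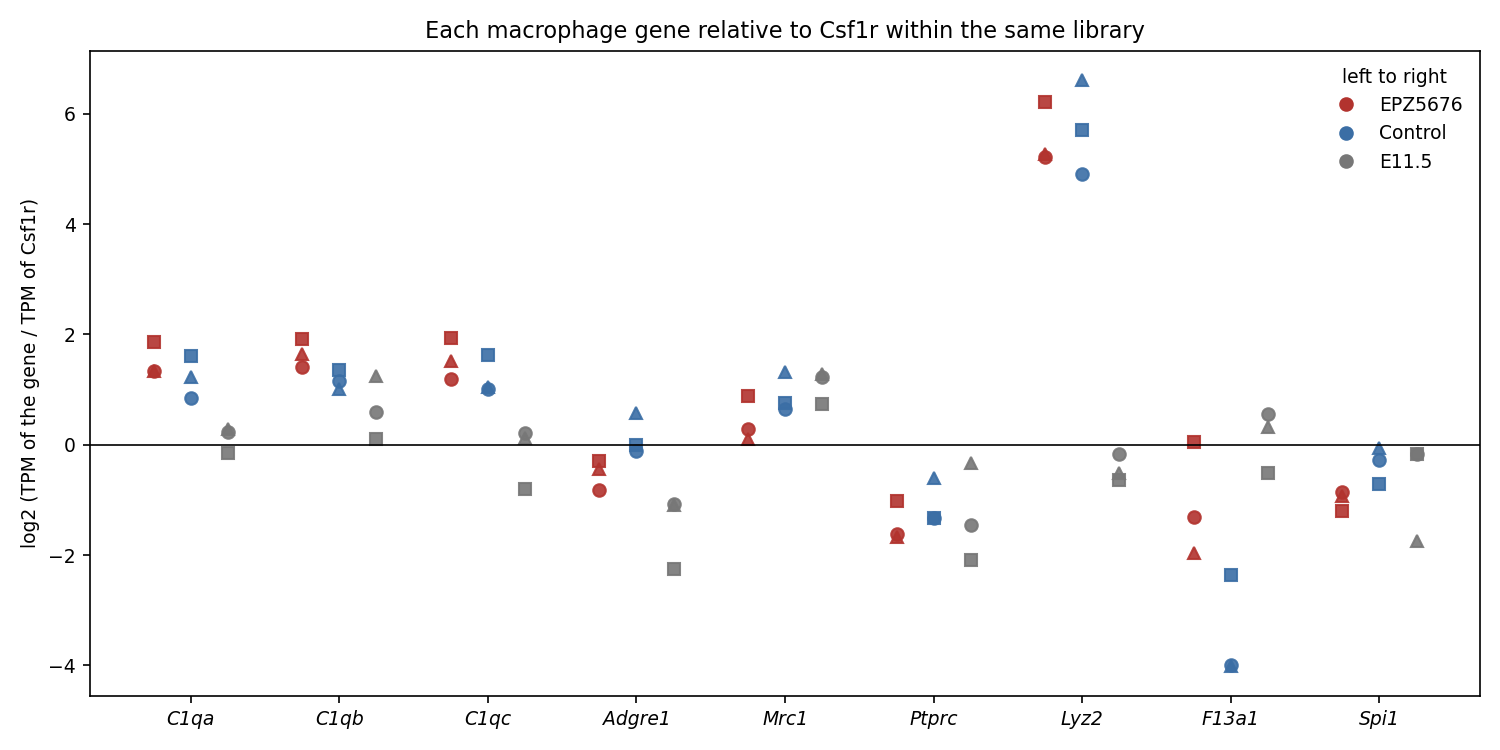
Log2 ratio of the TPM of each of the other 9 genes to that of Csf1r in the same library, with EPZ5676, Control and E11.5 from left to right for each gene and circles, squares and triangles for replicates 1, 2 and 3. F13a1 is at -4.02 to -2.35 in Control explants, against -1.96 to 0.06 in EPZ5676 explants and -0.52 to 0.57 in fresh lung.

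Among the libraries of 1 group the genes also varied unequally. In Control explants the SD was 45.4% to 50.1% of the mean for the 3 C1q genes and 46.5% for Csf1r, but 13.8% for Lyz2. In EPZ5676 explants it was 16.8% to 25.0% for the C1q genes, 33.6% for Csf1r and 4.42% for Lyz2. Among the cultured libraries Control 3 was lowest and EPZ5676 3 highest in both C1qa and C1qb. EPZ5676 2, the lowest EPZ5676 explant in Csf1r, was the highest in F13a1.

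**Figure D4:**
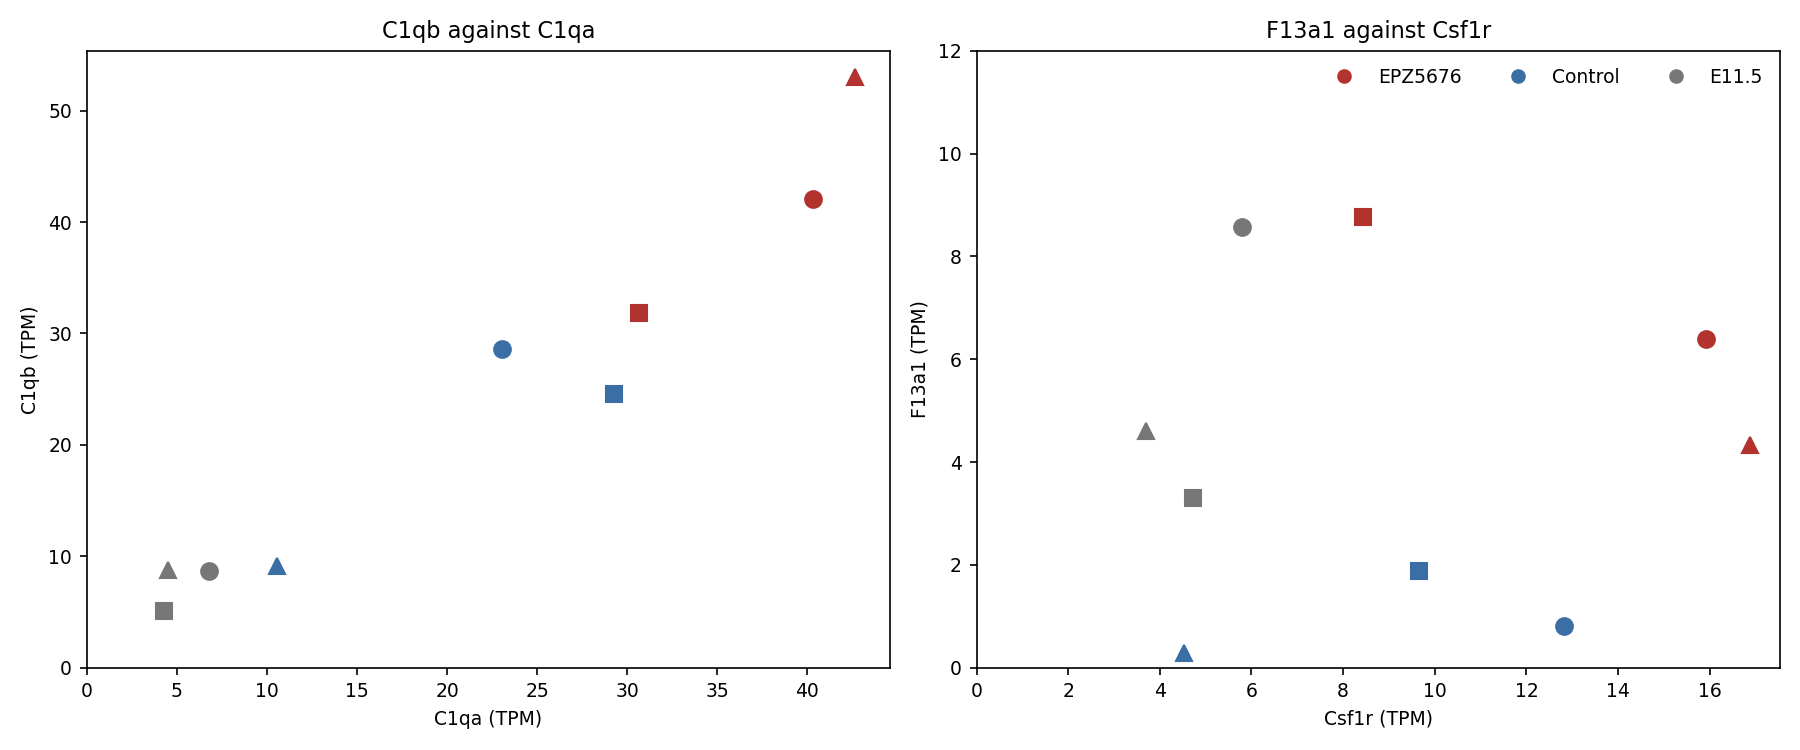
TPM of C1qb against C1qa (left) and of F13a1 against Csf1r (right) in the 9 libraries, coloured by group, with circles, squares and triangles for replicates 1, 2 and 3. C1qb and C1qa climb together up to 53.0 and 42.7 TPM in EPZ5676 3, while the 3 Control explants lie along the bottom of the right panel at 1.89 TPM of F13a1 or less.

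Most other macrophage genes on the lists also rose against fresh lung. Of 16 pan-macrophage genes 14 rose and 1 fell in Control explants, where 21.1% of all genes rose and 16.6% fell, and their median log2 fold change was 3.23. Trem2, a lipid receptor of macrophages, was at 26.3 ± 4.1 TPM in Control explants and 1.02 ± 0.67 TPM in fresh lung, a log2 fold change of 4.71 ± 0.45 (adjusted p = 5.0e-05, edgeR). Ms4a7, a membrane protein of macrophages, had 35, 48 and 12 counts in Control explants and 0, 2 and 0 counts in fresh lungs (edgeR adjusted p = 0.00189). The gene that fell was Cx3cr1, the fractalkine receptor, at 1.35 ± 0.81 TPM in Control explants and 5.28 ± 2.40 TPM in fresh lung, with -1.96 ± 0.42 on the log2 scale (edgeR adjusted p = 0.00487). Aif1, which encodes the calcium-binding protein IBA1, was the gene not called, at -0.30 ± 0.52. Aif1 and Cx3cr1 were named after their values were seen.

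In EPZ5676 explants against fresh lung 14 of the 16 rose and 1 fell, again Cx3cr1, with -1.12 ± 0.40 (edgeR adjusted p = 0.0479), and the median was 3.07. That call was lost without any 1 of E11.5 1, E11.5 2, Control 2 and the 3 EPZ5676 libraries, with edgeR adjusted p of 0.0637 to 0.216. Trem2 had 4.60 ± 0.45 and Ms4a7 6.01 ± 0.89 on the log2 scale, both called (edgeR adjusted p = 4.2e-05 and 5.2e-04). Of the 16, 0 were called in EPZ5676 against Control explants, with a median of 0.07. By the smallest p, Cx3cr1 came first with 0.84 ± 0.43 and Ms4a7 next with 0.86 ± 0.54 (edgeR adjusted p = 0.766 and 0.818).

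Of 12 genes of resident macrophages 7 passed the filter. In Control explants 5 rose and 1 fell, and in EPZ5676 explants 5 rose and 1 fell against fresh lung, with medians of 2.86 and 3.13. Over all genes 21.1% rose and 16.6% fell in Control explants, and 22.1% rose and 17.9% fell in EPZ5676 explants. Cd36, a scavenger receptor, was at 73.2 ± 14.8 TPM in EPZ5676 explants, 61.9 ± 18.9 TPM in Control explants and 3.39 ± 0.59 TPM in fresh lung. Its log2 fold changes against fresh lung were 4.47 ± 0.25 in EPZ5676 explants and 4.26 ± 0.25 in Control explants (edgeR adjusted p = 2.9e-06 and 4.8e-06). Lyve1, a hyaluronan receptor of perivascular macrophages and lymphatic vessels, was the gene that fell, with -2.81 ± 0.68 in Control explants (edgeR adjusted p = 0.00873) and -1.83 ± 0.63 in EPZ5676 explants (edgeR adjusted p = 0.0394). The EPZ5676 call was lost without any 1 of E11.5 1, E11.5 3, Control 2, EPZ5676 1 and EPZ5676 3, with edgeR adjusted p of 0.0505 to 0.172. Lyve1 was named after its values were seen.

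Cbr2, a carbonyl reductase found in resident macrophages and in airway epithelium, was listed at 0 counts in all 3 fresh lungs. It was at 15.7, 15.6 and 19.2 TPM in EPZ5676 explants and 3.01, 5.61 and 1.47 TPM in Control explants, on 52 to 68 counts against 3 to 20 counts. The groups did not overlap. The log2 fold change of 2.23 ± 0.50 between EPZ5676 and Control was not called (edgeR adjusted p = 0.291), and DESeq2 gave 2.24 with an adjusted p of 0.021. Without the filter on low counts the edgeR adjusted p was 0.0174. Gas6, a bridging ligand for the uptake of dying cells, was at 80.0 ± 19.1 TPM in EPZ5676 explants and 53.7 ± 2.8 TPM in Control explants, with 0.54 ± 0.21 (edgeR adjusted p = 0.636). Of the 7 genes 0 were called between EPZ5676 and Control, with a median of 0.54.

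Of 12 genes shared by leukocytes that passed the filter, 8 rose and 1 fell in Control explants against fresh lung. In EPZ5676 explants 8 rose and 0 fell against fresh lung. Shares of all genes were 21.1% up and 16.6% down in Control explants and 22.1% up and 17.9% down in EPZ5676 explants. Cd53, a tetraspanin, was at 26.8 ± 3.3 TPM in EPZ5676 explants, 26.7 ± 8.7 TPM in Control explants and 1.18 ± 0.29 TPM in fresh lung. Its log2 fold changes were 4.51 ± 0.38 in EPZ5676 explants and 4.56 ± 0.38 in Control explants (edgeR adjusted p = 2.0e-05 and 2.3e-05). Itgb2, the β2 integrin chain, rose by 2.39 ± 0.34 in EPZ5676 explants and 2.38 ± 0.34 in Control explants on the log2 scale (edgeR adjusted p = 3.5e-04 and 4.4e-04). The gene that fell in Control explants was Arhgdib, a regulator of small GTPases, with -0.69 ± 0.18 (edgeR adjusted p = 0.011), named here after its values were seen. None of the 12 was called in EPZ5676 against Control explants, with a median of 0.09. Coro1a, an actin regulator, came nearest with 0.63 ± 0.20, followed by Arhgdib with 0.47 ± 0.18 (edgeR adjusted p = 0.506 and 0.602).

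The list of CSF1R ligands and signalling genes was called at shares near those of all genes, of which 22.1% rose and 17.9% fell in EPZ5676 explants and 21.1% rose and 16.6% fell in Control explants. Of 11 genes that passed the filter, 2 rose and 1 fell in Control explants and 3 rose and 0 fell in EPZ5676 explants against fresh lung, with medians of 0.22 and 0.34. Ptpn6, the phosphatase SHP-1, rose by 1.32 ± 0.27 on the log2 scale in EPZ5676 explants and by 1.23 ± 0.27 in Control explants (edgeR adjusted p = 0.00318 and 0.00507), calls that were lost when TPM was tested (limma adjusted p = 0.0881 to 0.115). Plcg2, a phospholipase, rose by 1.03 ± 0.25 in EPZ5676 explants and by 0.76 ± 0.25 in Control explants (edgeR adjusted p = 0.00751 and 0.0341). Its call in Control explants was lost without any 1 of E11.5 1, E11.5 3, Control 1, Control 3 and EPZ5676 3 (edgeR adjusted p = 0.0507 to 0.116). Cbl, a ubiquitin ligase that turns over the receptor, fell by 0.29 ± 0.10 on the log2 scale in Control explants (edgeR adjusted p = 0.0427), a call lost without any 1 of E11.5 2, E11.5 3, Control 2, Control 3 and EPZ5676 3 (0.0551 to 0.126). Without E11.5 3, Control 3 or EPZ5676 3 only 1 gene of the list was called in Control explants, and Cbl was named after its values were seen. Between EPZ5676 and Control explants none of the 11 was called, with a median of 0.08, and Pik3cd, a PI3-kinase subunit, came next to Csf1 with 0.49 ± 0.25 (edgeR adjusted p = 0.760), a sign that turned when TPM was tested.

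Of 9 other complement genes that passed the filter, 4 rose and 1 fell in each cultured group against fresh lung. The medians were 1.09 in EPZ5676 explants and 1.07 in Control explants. For all genes the shares were 22.1% up and 17.9% down in EPZ5676 explants and 21.1% up and 16.6% down in Control explants. C2, the protease of the classical pathway convertase, was at 6.20 ± 1.26 TPM in EPZ5676 explants, 6.17 ± 2.77 TPM in Control explants and 0.64 ± 0.41 TPM in fresh lung. Its log2 fold changes were 4.68 ± 0.35 in EPZ5676 explants and 4.19 ± 0.35 in Control explants (edgeR adjusted p = 7.4e-06 and 2.1e-05). C5ar1, the receptor of the C5a fragment, rose by 4.19 ± 0.71 and 3.46 ± 0.74 on the log2 scale in EPZ5676 and Control explants (edgeR adjusted p = 0.00104 and 0.00433). Counts in fresh lungs 1 to 3 were 2, 2 and 3 for C2 and 3, 0 and 1 for C5ar1. Under alternatives that kept all libraries of a comparison, the rise in EPZ5676 and Control explants was as low as 2.15 and 2.09 for C2. For C5ar1 it was as low as 1.62 and 1.21. The gene that fell was Cd93, a C-type lectin receptor of endothelium, with -1.85 ± 0.49 in EPZ5676 explants and -1.74 ± 0.48 in Control explants (edgeR adjusted p = 0.0184 and 0.0242). The EPZ5676 call was lost without EPZ5676 2 or EPZ5676 3 (edgeR adjusted p = 0.0624 and 0.0649) and the Control call without E11.5 2, E11.5 3 or Control 2 (0.0589 to 0.0762). Cd93 was named after its values were seen. In EPZ5676 against Control explants none of the 9 was called, with a median of 0.14, C2 at 0.49 ± 0.24 and C3 at -1.13 ± 0.63 (edgeR adjusted p = 0.746 and 0.792). C3 had 70 counts in Control 1, the library with the most liver RNA. It had 11 and 10 counts in Control 2 and 3 and 10 to 13 in EPZ5676 explants. With libraries left out its log2 fold change was -1.46 to -0.043.

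Among 12 myeloid transcription factors that passed the filter, 10 rose in EPZ5676 explants and 8 rose in Control explants against fresh lung. In either group 0 fell, and the medians were 1.86 and 1.49. Of all genes 22.1% rose and 17.9% fell in EPZ5676 explants, and 21.1% rose and 16.6% fell in Control explants. Cebpa, a partner of PU.1 in myeloid cells that lung epithelium also uses, rose by 3.35 ± 0.33 on the log2 scale in EPZ5676 explants and by 2.81 ± 0.33 in Control explants (edgeR adjusted p = 3.9e-05 and 1.5e-04). Tfec, a factor of the MITF family, rose by 2.20 ± 0.33 in Control explants (edgeR adjusted p = 6.3e-04). Myb, a factor of haematopoietic progenitors, was at 15.3, 7.08 and 26.3 TPM in EPZ5676 explants, 5.11, 4.76 and 1.98 TPM in Control explants, and 2.81, 2.39 and 3.36 TPM in fresh lungs. All EPZ5676 explants lay above all other libraries. Which cells of the whole tissue held the Myb RNA was not tested. Myb rose in EPZ5676 explants against fresh lung, by 2.54 ± 0.46 on the log2 scale (edgeR adjusted p = 0.00218). Against Control explants its log2 fold change of 2.01 ± 0.44 was not called by edgeR (adjusted p = 0.260) and was called by DESeq2 (2.02, adjusted p = 8.9e-04). Without EPZ5676 2 edgeR called it as well, with 2.35 and an adjusted p of 0.0328. Of the 12 factors 0 were called by edgeR between EPZ5676 and Control, with a median of 0.28, and Nr1h3, a sterol-sensing nuclear receptor, followed Myb with 0.59 ± 0.29 (adjusted p = 0.743).

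Markers of other blood cells took different courses. The 10 markers of monocytes and neutrophils summed to 5.46 to 9.38 TPM in EPZ5676 explants, 5.51 to 24.7 TPM in Control explants and 20.6 to 22.0 TPM in fresh lung, with Mpo, Elane and Ngp at 0 in EPZ5676 explants and Ly6c2 at 0 in the other 2 groups. Control 1, at 24.7 TPM, lay above all fresh lungs and the other cultured libraries below them. The 10 lymphocyte markers summed to 2.75 to 3.40 TPM in EPZ5676 explants, 0.91 to 3.71 TPM in Control explants and 1.49 to 2.31 TPM in fresh lung, with Cd3e and Cd3g at 0 in all 9 libraries. All EPZ5676 explants lay above all fresh lungs in this sum. Il7r, the interleukin 7 receptor of lymphoid cells and some fetal macrophages, was the lymphocyte marker that passed the filter, and it rose by 4.30 ± 0.65 on the log2 scale in EPZ5676 explants and by 4.18 ± 0.66 in Control explants against fresh lung (edgeR adjusted p = 5.4e-04 and 7.8e-04). The 7 mast cell markers summed to 1.32 to 6.21 TPM in EPZ5676 explants, 0 to 1.22 TPM in Control explants and 1.51 to 2.32 TPM in fresh lung, with Fcer1a at 0 in all 9. The mast cell sum of every EPZ5676 explant was above that of every Control explant, but only by 1.32 TPM against 1.22 TPM at the nearest. Every Control explant lay below every fresh lung in that sum, and F13a1 showed both separations. Hdc was the mast cell marker that passed the filter. It was at 1.36 ± 1.40, 0.25 ± 0.43 and 1.41 ± 0.85 TPM in EPZ5676 explants, Control explants and fresh lung, and all groups overlapped. Its log2 fold change was -4.32 ± 1.22 in Control explants against fresh lung (edgeR adjusted p = 0.0185). EPZ5676 against Control gave 4.23 ± 1.22 and was not called (edgeR adjusted p = 0.446). In EPZ5676 explants 1 to 3 the mast cell sum was 6.21, 1.32 and 5.25 TPM, and F13a1 was at 6.40, 8.77 and 4.33 TPM. The part of mast cells in the F13a1 difference was not tested.

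Out of 15148 other genes, those whose course over the 9 libraries was closest to the mean course of the 10 included Cntnap1, Fam83b, Evpl and Ripk4. Likeness was the root mean square difference of gene-centred log2 CPM, which was 0.15 for Cntnap1, 0.17 for Fam83b, 0.18 for Evpl and 0.20 for Ripk4. Among the 10 themselves this distance to their own mean was smallest for C1qa, at 0.21, and largest for F13a1 and Lyz2, at 1.83 and 2.43. Cntnap1 was at 2.14, 1.80 and 2.14 TPM in EPZ5676 explants, 1.26, 1.12 and 0.78 TPM in Control explants, and 0.39, 0.22 and 0.22 TPM in fresh lungs. Evpl and Ripk4 are best known from epithelium. On the scale of log2(TPM + 1) only Fam83b was again among the nearest 5.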

How the data were processed

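RNA-seq of 9 mouse lung libraries was used. Per the labels' protocols, libraries were prepared from TRIzol-extracted total RNA with a Vazyme kit. RSEM, Bowtie2 and the build mm10 appear in the submitters' processing notes, without versions. The authors deposited expected counts per gene, which are estimates and need not be whole, and the authors deposited TPM per gene.

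Expected counts were rounded, filtered with filterByExpr (minimum count 10) and scaled by TMM. All 9 libraries entered 1 model by group, which left 6 residual degrees of freedom, and were tested two-sided with edgeR 4.0.16 (R 4.3.3). Each SE came from the log2 fold change and its F statistic. Ratios of TPM were tested by exact permutation. Alternatives were DESeq2 1.42.0, limma 3.58.1 on log2(TPM + 1) and log2(TPM + 0.1), other scalings and filters, only the 6 libraries compared, the replicate number as a block and each library left out. Both edgeR and DESeq2 were also run on simulated counts, with changes planted only in EPZ5676 explants. That simulation held neither outlying libraries nor changes between Control explants and fresh lung, and its outcome is not given here. Positions come from GENCODE M21 (GRCm38) and promoters from RefSeq.

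The members, the gene lists and their tests were chosen with earlier results of these data known. Named genes were the 10 members, Csf1, Il34, Lyz1 and Dot1l, the 5 genes nearest in course, and from each macrophage, leukocyte, complement, CSF1R or transcription factor list the 2 called genes with the largest change or, with none called, the 2 with the smallest p. Markers of other cells are given as sums of whole lists, with single genes of some lists named besides. A gene that the rule on the nearest course also names is not reported here.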

Additional observations from a re-analysis of the deposited data

How the results depend on the processing

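The rise of the C1q genes, Adgre1 and Lyz2 and the fall of F13a1 in Control explants against fresh lung held under all 18 alternatives, with the log2 fold change of Lyz2 between 6.62 and 7.32 and that of F13a1 between -3.32 and -1.70. When TPM was tested with limma, with a pseudocount of 1 or of 0.1, 6 of the 10 genes were called in that comparison, with Csf1r, Mrc1, Ptprc and Spi1 lost. With libraries left out 1 at a time, 9 to 10 were called. Between EPZ5676 and Control explants the number of genes called was 83 with DESeq2, 76 without the filter on low counts, 1 with the replicate block and 0 to 26 with libraries left out, and DESeq2 called 1 of the 10. Deviations from the group mean were correlated between libraries of different groups. Of 9 same-number correlations 1 was above 0.1, as were 4 of 18 with different numbers. The 1 was Control 1 with EPZ5676 1, at 0.46, whereas different numbers reached at most 0.26. These values do not settle whether replicate numbers pair the cultured libraries. Under the replicate block 0 of the 10 genes were called in EPZ5676 against Control. The block left 10 called in Control against fresh lung and 9 in EPZ5676 against fresh lung. The block also ended the calls of Plcg2 and Cbl in Control against fresh lung and of Lyve1 in EPZ5676 against fresh lung (edgeR adjusted p = 0.0565, 0.0591 and 0.0872). The cause of these shifts was not tested. Signs turned for values near 0. Spi1 in EPZ5676 against Control was 0.026 on both TPM scales and -0.28 to 0.12 with libraries left out, and Pik3cd was -0.12 and -0.16 on the TPM scales. F13a1 in EPZ5676 against fresh lung was -0.069 to 0.71 with libraries left out, turning without E11.5 2 (-0.02) and EPZ5676 2, and Aif1 in Control against fresh lung was -0.56 to 0.063, turning without Control 3. By counts the share of C1qa was 29.6% in EPZ5676 explants, and that of C1qc 36.0% in EPZ5676 explants and 36.9% in Control explants. Relative to Ptprc in place of Csf1r, EPZ5676 minus Control was 0.84 for C1qb and -0.29 for Spi1, and with CPM in place of TPM, relative to Csf1r, it was 0.03 for Adgre1. With 50 bases after the start included, 28.3% of promoters held the motif. Counts were low for Spi1, Adgre1, Lyz2 and C1qa in fresh lungs, at most 29 in any library, and for F13a1 in Control explants, at most 20, which limits the precision of their changes.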
